A study of Mus musculus with 4 samples.

Results

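The miRNAs let-7a, let-7d, let-7f and miR-98 were followed in small RNA sequencing of the embryonic mouse forebrain. They were chosen by name, because their genes lie together at chromosome 13 and at chromosome X. Earlier results of these data were known when they were chosen. Each is represented here by its 5p arm (mmu-let-7a-5p, mmu-let-7d-5p, mmu-let-7f-5p and mmu-miR-98-5p). These 4 were among 1059 mature miRNAs with a row in the count tables, and all 4 were among the 274 that reached the count minimum (at least 10 counts in at least 2 libraries). The tissue was the rostral tip of the telencephalic primordium at E11.5. The mutants carried RxCre together with floxed Dicer (RxCre-DicerF/F), and the controls, labelled WT, are given as DicerF/F in the series' own design, so that floxed Dicer without Cre was their genotype. The floxed line was kept on a C57BL/6 background and the Cre line on a CD1 background. Cre is driven by regulatory sequences of Rx in this line, so cells of the dissected tissue outside the Rx lineage, such as those of blood vessels and blood, are not expected to lose Dicer. Each group had 2 libraries, named here by genotype and replicate number.

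let-7 miRNAs are cut from hairpins by Drosha and then by Dicer, and miR-98 is a let-7 miRNA in all but name. They are scarce in early progenitors, where Lin28 holds their precursors back, and accumulate as tissues differentiate, where they repress growth genes such as Hmga2 and Lin28 itself. Because Dicer makes the last cut, its loss stops the supply of new mature miRNA, while molecules made earlier decay at their own pace.

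Over all mature miRNAs, the mutant libraries summed to 651031 (Rx-Dicer 1) and 516517 counts (Rx-Dicer 2), the control libraries to 1299067 (control 1) and 1133553 counts (control 2), and values below keep this order. The most abundant miRNA was miR-9-5p, a neural miRNA, with 28.2% and 29.4% of the counts in the mutants and 31.5% and 42.6% in the controls. Small RNA counts do not measure the Dicer transcript, so the deletion itself was not checked here. Levels are given as scaled CPM, that is, the counts of a library set relative to its total, which was first multiplied by its TMM factor so that most miRNAs are level between libraries.

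let-7a-5p is made from 2 genes and was the most abundant of the 4. Its counts were 5757 and 4364 in the mutants, against 21763 and 12554 in the controls. As scaled CPM this was 7567 and 7441 in the mutants and 18086 and 13611 in the controls. The mutants lay close together, the controls differed 1.33-fold from each other, and the groups did not overlap.

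let-7f-5p is also made from 2 genes, one beside let-7a and let-7d and the other beside miR-98. Its counts were 3896 and 3060 in the mutants and 16167 and 10732 in the controls, or 5121 and 5218 scaled CPM against 13436 and 11635. Both mutant libraries were low and nearly equal, and the lowest control was 2.23 times the highest mutant.

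let-7d-5p comes from a single gene. It had 475 and 465 counts in the mutants and 3279 and 1556 counts in the controls, which was 624 and 793 scaled CPM against 2725 and 1687. The groups did not overlap, but the controls differed 1.62-fold, more than for the other 3 miRNAs, with control library 1 the higher.

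miR-98-5p, also from a single gene, was the least abundant. It had 119 and 97 counts in the mutants and 751 and 448 counts in the controls. As scaled CPM this was 156 and 165 in the mutants and 624 and 486 in the controls. The groups were furthest apart for this miRNA, with the lowest control at 2.94 times the highest mutant.

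**Figure D1:**
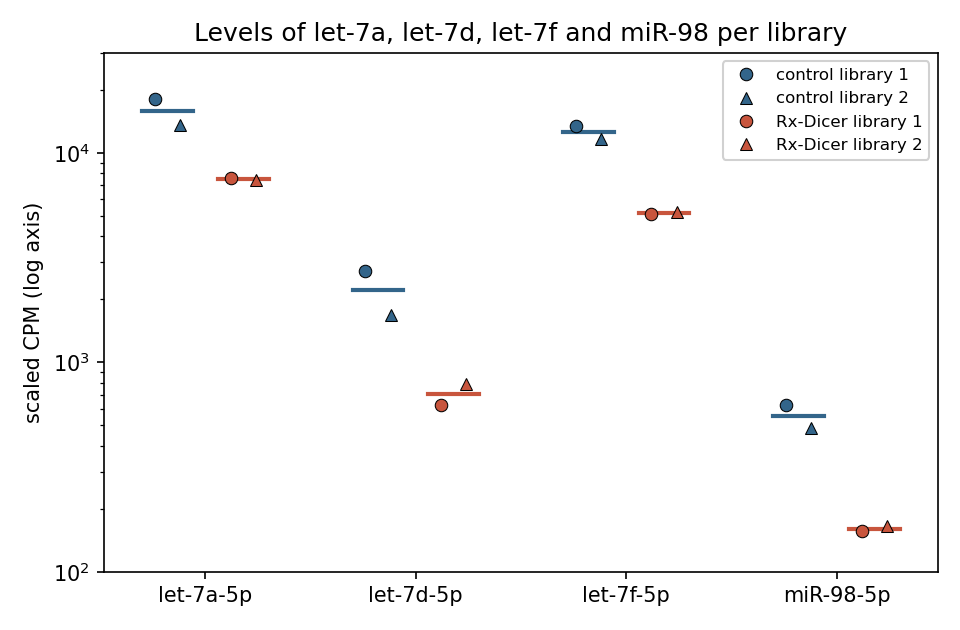
Scaled CPM (counts relative to the TMM-scaled library total, log axis) of let-7a-5p, let-7d-5p, let-7f-5p and miR-98-5p, with 1 point per library (circles, replicate 1; triangles, replicate 2) and a line at each group's mean. For each miRNA both Rx-Dicer libraries lie below both control libraries, and control library 1 lies above control library 2.

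Between mutants and controls, the fold change was largest for the least abundant miRNA. miR-98-5p was 3.45-fold lower in mutants (161 ± 6.35 against 555 ± 97.9 scaled CPM, SD, n = 2 libraries each). On the log2 scale this was −1.79, with a 95% interval of −2.40 to −1.17 and an adjusted p = 0.0188 (edgeR's quasi-likelihood test, Benjamini-Hochberg adjustment). let-7d-5p was 3.11-fold lower (709 ± 119 against 2206 ± 734 scaled CPM, SD, n = 2 each), or −1.64 as log2 fold change (interval −2.39 to −0.89, adjusted p = 0.0472 in the same edgeR test with Benjamini-Hochberg adjustment). let-7f-5p was 2.42-fold lower (5169 ± 68.3 against 12536 ± 1273 scaled CPM, SD, n = 2 each), or −1.28 as log2 fold change (interval −1.85 to −0.70, adjusted p = 0.0472 in edgeR with Benjamini-Hochberg adjustment). For let-7a-5p the means were 7504 ± 89.1 and 15849 ± 3165 scaled CPM (SD, n = 2 each) and the log2 fold change was −1.08 (interval −1.69 to −0.47), which did not pass the threshold of 0.05 (adjusted p = 0.105 in edgeR with Benjamini-Hochberg adjustment). The 4 intervals overlapped one another. In bulk tissue, fewer cells that hold a miRNA and less of it per cell cannot be told apart.

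Thus 3 of the 4 miRNAs were lower in mutants by edgeR, against 2.55% of all 274 tested (7 miRNAs), and 0 miRNAs were higher in edgeR (0 with DESeq2's Wald test after adjustment). The 7 were these 3 and 4 other let-7 miRNAs, so the 2.55% comes from this family alone. At an unadjusted p under 0.05, edgeR had 23 miRNAs lower (8.39%) and 3 higher. This balance followed the scaling, with 10 lower and 51 higher with total counts only (0 called in either direction) and 61 lower and 0 higher with equal red-cell miRNAs (11 called lower). The median log2 fold change of the 4 was −1.46, against 0.04 over all tested miRNAs. For all 4, the higher mutant lay below the lower control, as was the case for 24.5% of the miRNAs tested. DESeq2's Wald test called all 4, against 4.01% of the miRNAs tested (11 miRNAs, which include these 4 and 5 other let-7 miRNAs). Ranked from the most negative fold change, miR-98-5p was at place 3, let-7d-5p at 6, let-7f-5p at 11 and let-7a-5p at 14 of 274. The calls depended on the scaling. In edgeR only miR-98-5p passed with DESeq2's size factors and with upper-quartile scaling, which moved the median of all tested miRNAs to 0.07 and 0.14 (let-7d and let-7f each at a Benjamini-Hochberg adjusted p of 0.0609 and 0.0719). With total counts alone (median 0.44) none of the 4 passed, with log2 fold changes of −1.39 to −0.69, and with equal red-cell miRNAs (median −0.37) all 4 did. They also varied with the library left out. In edgeR let-7d and miR-98 still passed without Rx-Dicer library 2, and none of the 4 passed without any one of the other 3 libraries. Without Rx-Dicer library 1 the log2 fold changes were −1.75 to −1.09. They were −1.56 to −0.82 without control library 1 and −1.96 to −1.27 without control library 2. The labels do not say whether the libraries of a group came from separate embryos, so the p-values measure the spread between these libraries, which may be technical.

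**Figure D2:**
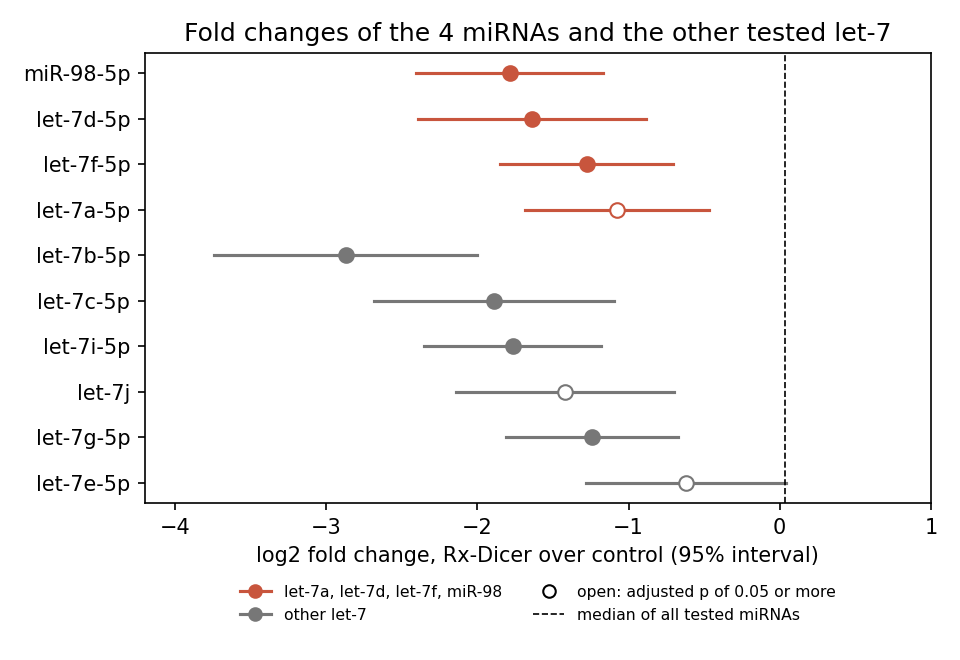
Log2 fold changes (Rx-Dicer over control) with 95% intervals from edgeR's quasi-likelihood fit, for the 4 miRNAs (red) and the other tested let-7 miRNAs (grey). Filled points have an adjusted p under 0.05, open points do not, and the dashed line is the median of all 274 tested miRNAs (0.04). The 4 miRNAs span −1.79 to −1.08.

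The order of the levels was let-7a, let-7f, let-7d and miR-98 in each of the 4 libraries. The mature forms of the 4 are all 22 bases long, so their counts can be set side by side without a length correction, although ligation can favour some ends over others. The closest neighbours were let-7a-5p and let-7f-5p, at 15849 ± 3165 and 12536 ± 1273 scaled CPM in controls (SD, n = 2 each), where the ranges of mean ± SD overlapped although let-7a was the higher within each library. In mutants these ranges were apart (7504 ± 89.1 and 5169 ± 68.3). Among all 1059 mature miRNAs, let-7a-5p held rank 22 and 26 in the mutants and 16 and 18 in the controls. miR-98-5p held rank 140 and 139 in the mutants and 80 and 93 in the controls.

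Together the 4 made up 1.57% (95% Wilson interval 1.54 to 1.60) and 1.55% (1.51 to 1.58) of the mutants' counts. Of the controls' counts they made up 3.23% (3.20 to 3.26) and 2.23% (2.20 to 2.26). The mutants were alike, whereas the controls differed by far more than counting error, which is all that these intervals cover. The difference of the means was −1.17 percentage points (two-sided exact permutation test, p = 0.33, which is also the lowest value that groups of 2 libraries allow). It was −0.67 percentage points without control library 1, and −2.11 with miR-9-5p taken out of the total. Fitted as a single sum, in which a read counted on several of them enters more than once, the 4 had a log2 fold change of −1.18 (standard error 0.26), which did not pass the threshold (adjusted p = 0.0979 in edgeR with Benjamini-Hochberg adjustment).

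A comparison within a library does not depend on the scaling between libraries. The ratio of let-7a-5p to miR-98-5p counts was 48.4 and 45.0 in the mutants and 29.0 and 28.0 in the controls, so relative to let-7a there was less miR-98 in both mutants. The ratio of let-7f-5p to miR-98-5p was 32.7 and 31.5 in the mutants and 21.5 and 24.0 in the controls, again without overlap, although a let-7f gene and Mir98 are neighbours on chromosome X. For let-7a-5p to let-7d-5p the ratio was 12.1 and 9.38 in the mutants and 6.64 and 8.07 in the controls. Each of these ratios was thus higher in both mutants. The ratio of let-7a-5p to let-7f-5p was 1.48 and 1.43 in the mutants and 1.35 and 1.17 in the controls, a smaller shift in the same direction. Between let-7d-5p and miR-98-5p, the miRNAs with a single gene each, the ratio was 3.99 and 4.79 in the mutants and 4.37 and 3.47 in the controls, and the groups overlapped. The ratio of let-7d-5p to let-7f-5p also overlapped, with 0.122 and 0.152 in the mutants and 0.203 and 0.145 in the controls.

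On the log2 scale, the shift of these ratios between mutants and controls was 0.71 for let-7a over miR-98, 0.54 for let-7a over let-7d, 0.50 for let-7f over miR-98 and 0.21 for let-7a over let-7f. For let-7d over miR-98 it was 0.17, and for let-7d over let-7f it was −0.33. Single libraries moved some of these shifts widely. The shift of let-7d over miR-98 was 0.30 without Rx-Dicer library 1, 0.036 without Rx-Dicer library 2, 0.33 without control library 1 and 0.0027 without control library 2. That of let-7d over let-7f was −0.17 without Rx-Dicer library 1, −0.091 without control library 1 and −0.58 without control library 2, that of let-7a over let-7f was 0.11 without control library 2, and that of let-7a over let-7d was 0.36 without Rx-Dicer library 1. The exact permutation test (two-sided) gave p = 0.33 for the 4 pairs whose groups did not overlap, the smallest value possible here, and p = 0.667 for the other 2 (0.500 and 0.667 after Benjamini-Hochberg adjustment over the 6 pairs). No pair could therefore pass 0.05. Depth limits miR-98 most. Its share of the counts on the 4 was 1.16% (Wilson interval 0.971 to 1.39) and 1.21% (0.997 to 1.48) in the mutants. In the controls it was 1.79% (1.67 to 1.92) and 1.77% (1.62 to 1.94). The groups' intervals did not overlap, but they cover counting error only and not the spread between separate libraries. No group difference is drawn from them.

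The mature sequences show how close these miRNAs are, which matters for a count table because a read with a mismatch can match more than 1 of them. They are given 5′ to 3′ from RefSeq (GRCm38.p6), where all 4 were matched by name, and capitals mark the seed (bases 2 to 8), the part that pairs with targets.
let-7a-5p: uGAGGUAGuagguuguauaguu
let-7f-5p: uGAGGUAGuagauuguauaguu
let-7d-5p: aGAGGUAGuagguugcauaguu
miR-98-5p: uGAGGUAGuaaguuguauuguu
All 4 hold the same seed. With positions counted from 1 at the 5′ end of let-7a-5p, let-7f-5p differs from it by G12A, let-7d-5p by U1A and U16C, and miR-98-5p by G11A and A19U. The pair furthest apart was let-7d-5p and miR-98-5p, with 4 differences. Among the 4, let-7a-5p and let-7f-5p, with 1 difference, are the closest pair. let-7c-5p (A19G) and let-7e-5p (U9G) also differ from let-7a-5p by only 1 base, with log2 fold changes of −1.89 and −0.62, and how many reads such miRNAs share was not tested.

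The genes stand in close groups. All positions are in GRCm38.p6, and the annotation is GENCODE M21. On chromosome 13, minus strand, Mirlet7a-1 (chr13:48538179-48538272), Mirlet7f-1 (chr13:48537829-48537917) and Mirlet7d (chr13:48536012-48536114) follow each other in the direction of transcription, with 261 and 1714 bases between them. All 3 hairpins lie in the last exon of the long non-coding RNA 6720427I07Rik (chr13:48532905-48538351 for that exon). On chromosome X, plus strand, Mirlet7f-2 (chrX:151912346-151912428) and Mir98 (chrX:151913214-151913321) are 785 bases apart in the same intron (chrX:151912255-151914145) of Huwe1, which encodes a ubiquitin ligase. Mirlet7a-2 (chr9:41536716-41536811) lies on the plus strand of chromosome 9, in introns of the non-coding genes 3110039I08Rik and Gm49317.

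**Figure D3:**
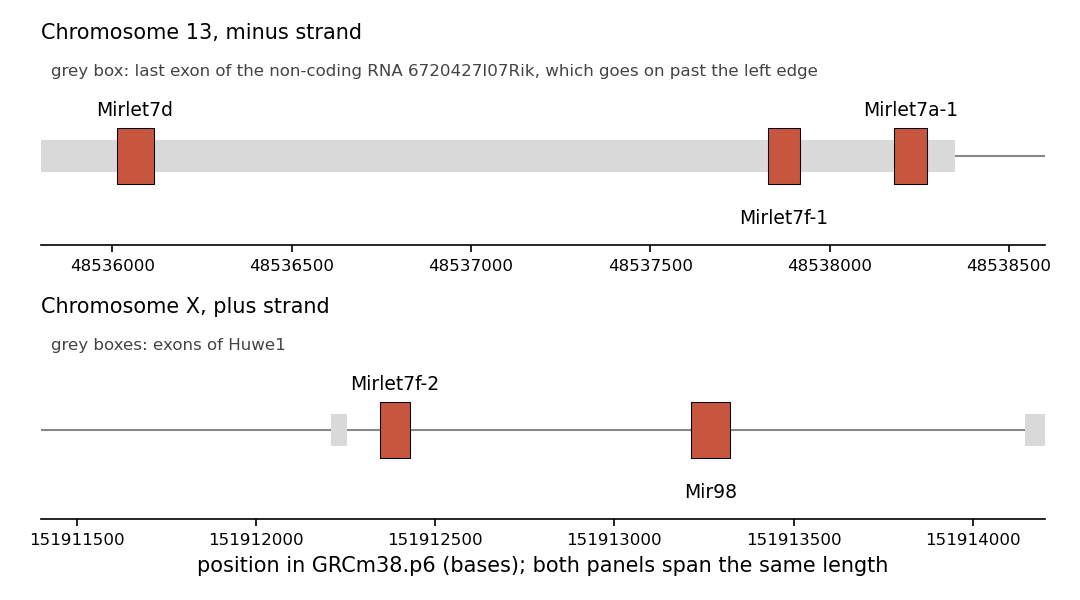
Map to scale of the let-7 genes on chromosome 13 (minus strand, transcribed from right to left) and chromosome X (plus strand, transcribed from left to right), with positions in bases of GRCm38.p6. Red boxes are hairpins and grey boxes are exons. The 3 hairpins on chromosome 13 lie within 2261 bases in 1 exon, and the 2 on chromosome X within 976 bases in 1 intron.

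The rows of the count tables cannot assign let-7a and let-7f to these genes. Each has 2 precursor rows, and the second row of let-7a-5p had only 10 and 5 counts fewer than the first in the mutants and 41 and 20 fewer in the controls. For let-7f-5p the second row had 54 and 42 counts fewer in the mutants and 182 and 135 fewer in the controls. The 2 rows thus hold nearly the same reads, at most 1.39% apart, so the share of let-7f from chromosome 13 or from chromosome X was not resolved. The other arms of the 6 hairpins were searched for by name, and 0 had a row in the count tables, where 114 rows are named 3p.

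Of 7 other let-7 miRNAs listed, 6 were tested, with a median log2 fold change of −1.59. For all 6 the mutant libraries lay below the control libraries, against 24.5% of all miRNAs tested. In edgeR 4 passed the threshold, against 2.55%, a share that consists of these 4 and the 3 named above. DESeq2's Wald test called 5 of these other let-7 miRNAs, let-7j among them, against 4.01%, a share that includes these 5 and the 4 members. Over the 22 bases compared, let-7j differs from let-7i-5p by only 1 base (G8U), and how many reads they share was not tested. The edgeR calls depended on the scaling. Over all miRNAs tested, 7 were called lower with TMM, 4 with DESeq2's size factors and 3 with upper-quartile scaling. With total counts only 0 were, and with equal red-cell miRNAs 11 were. The 4 miRNAs made up 41.5% and 40.2% of all let-7 and miR-98 counts in the mutants and 36.9% and 39.2% in the controls, so their part in the family was slightly higher in both mutants. The controls differed from each other by more than the nearest mutant and control did, and this part was not tested. Of 5 miRNAs with genes near let-7 genes (miR-99a, miR-99b, miR-100, miR-125a and miR-125b, of which miR-100 and 1 gene of miR-125b lie near Mirlet7a-2), 5 had negative fold changes, against 45.6% of all miRNAs tested, with a median of −0.43, and for 4 both mutants lay below both controls, against 24.5%. In edgeR 0 passed (1 at an unadjusted p under 0.05, against 8.39%), and DESeq2's Wald test called 1, miR-99a-5p. Outside the family, the miRNAs whose levels over the 4 libraries were most like the mean profile of the 4 (Euclidean distance of centred log2 scaled CPM) were miR-3078-5p (0.48), miR-139-5p (0.50), miR-5113 (0.56), miR-188-5p (0.67) and miR-99a-5p (0.71), with let-7f-5p itself at 0.22. miR-3078-5p had no more than 17 counts in a library and miR-188-5p no more than 24.

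Markers of cell types also differed between the libraries. The summed neural markers (4 of 7 listed had a row used here, nearly all of it miR-9-5p) were at 243463 and 262178 scaled CPM in the mutants and 344440 and 526747 in the controls. The summed mesenchymal markers (6 of 8, most abundant miR-199a-5p) were at 16189 and 15958 in the mutants and 6606 and 15825 in the controls. Control library 1 thus had the lowest mesenchymal sum and the highest let-7a, let-7d, let-7f and miR-98 levels, while control library 2 had the highest neural sum. Red-cell markers (4 of 5, led by miR-486a-5p and miR-486b-5p with equal counts) were at 14112 and 15877 in the mutants and 10825 and 11847 in the controls. Endothelial (1 of 2, miR-126a-5p) and white blood cell markers (3 of 5, led by miR-142a-5p) overlapped between the groups, with 431 and 244 against 253 and 403, and 129 and 136 against 88.1 and 139. Epithelial markers (7 of 7, led by miR-205-5p) also overlapped, at 235 and 808 in the mutants and 201 and 427 in the controls. Among them miR-200c-5p, miR-429-5p and miR-203-5p were at 0. Caudal markers of the Hox clusters (5 of 5) were at 526 and 564 in the mutants and 591 and 706 in the controls. They were led by miR-10a-5p in the mutants and by miR-10b-5p in the controls. None of these 7 lists had a member past the threshold in edgeR, while 2 of 4 neural members tested were lower at an unadjusted p under 0.05, against 8.39% of all miRNAs tested (0 called by DESeq2's Wald test). Their part in the let-7 and miR-98 differences was not tested.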

How the data were processed

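The authors made single-end reads of 75 bases from small RNA and used miRDeep2, with mm10 and miRBase as references, to count them. The values are deposited counts, whole numbers without normalization, 1 row per pair of mature miRNA and precursor. The settings of miRDeep2 are not given in the sources used here. Because reads can be counted on near-identical miRNAs, differences among these 4 can be blurred.

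Where a mature miRNA had more than 1 row, its row of highest total was used, which left 1059 of 1211 rows. A count minimum (10 counts in 2 or more libraries) left 274 miRNAs, which were tested by edgeR's quasi-likelihood test (edgeR 4.0.16, R 4.3.3; TMM scaling, genotype as the factor), with Benjamini-Hochberg adjustment over all 274 and a threshold of 0.05. Standard errors were taken from the F statistic. Single values were compared by exact permutation tests (scipy 1.17.1), and shares carry 95% Wilson intervals. Alternatives were other scalings, DESeq2's Wald test (DESeq2 1.42.0), other count minimums, other treatments of precursor rows, a replicate block, an adjusted p of 0.1 and each library left out. The scripts were tested on simulated data with the same dispersion for all miRNAs and 20 of 274 set 4-fold lower. There edgeR recovered 71.5% of these and DESeq2 71%, while 5.30% and 8.39% of their calls were false. No 2 libraries agreed within sampling noise.

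Named miRNAs were the 4, the other let-7, miRNAs with genes near let-7 genes, the 5 nearest by profile outside the family, miR-9-5p, and marker lists for neural, red cell, endothelial, white blood cell, mesenchymal, epithelial and caudal tissue. The members and lists were chosen with earlier results of these data known. Genes were placed with GENCODE M21, and sequences come from RefSeq. mRNA libraries were not analysed here.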

Additional observations from a re-analysis of the deposited data

How the results depend on the processing

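The fold changes of the 4 miRNAs and of their sum were negative in each of the 15 settings. In edgeR with all libraries, let-7a-5p passed the threshold with equal red-cell miRNAs (−1.50), no count minimum (−1.24), at least 100 counts (−1.09) and every precursor row (−1.11), and so it did with DESeq2's Wald test (−1.04). Its adjusted p ranged from 0.00201 to 0.474 over the 11 settings with all libraries, and up to 0.754 with a library left out (edgeR and DESeq2, Benjamini-Hochberg). let-7d-5p and let-7f-5p no longer passed with DESeq2's size factors (−1.61 and −1.24), total counts only (−1.26 and −0.88), upper-quartile scaling (−1.54 and −1.18) and the replicate block (−1.61 and −1.27). miR-98-5p no longer passed with total counts only (−1.39) and the replicate block (−1.78). The sum passed with DESeq2's Wald test (−1.18), no count minimum (−1.36), at least 100 counts (−1.20), every precursor row (−1.24) and the sum over rows (−1.22).

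The number of the 4 called lower, 3 in the main comparison, was 1 with DESeq2's size factors and with upper-quartile scaling, and 0 with total counts only and with the replicate block (edgeR at an unadjusted p under 0.05: 20 miRNAs lower and 4 higher). The number of all miRNAs called lower, 7 in the main comparison, was 4 with DESeq2's size factors, 3 with upper-quartile scaling, 0 with total counts only (51 up and 10 down when p under 0.05 is left unadjusted), 11 with every precursor row, DESeq2's Wald test and equal red-cell miRNAs, 14 with no count minimum, and 0 with the replicate block. The number called higher was 0 in each setting, with 0 (equal red-cell miRNAs and at least 100 counts) to 51 (total counts only) at an unadjusted p under 0.05. Total counts only and equal red-cell miRNAs moved the median of all tested miRNAs to 0.44 and −0.37. Relative to the median of the same fit, which takes up most of a change of scaling by construction, the 5 scalings gave −1.13 to −1.11 for let-7a-5p, −1.71 to −1.67 for let-7d-5p, −1.33 to −1.31 for let-7f-5p and −1.84 to −1.82 for miR-98-5p. The cause of the changed calls was not tested. Same-numbered libraries share only a number, and across 274 miRNAs they deviated from their groups' means with a correlation of 0.091.

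With each library left out, which assumes that the lone library varies like the other group, the fold change ranged from −1.27 to −0.82 for let-7a-5p, −1.94 to −1.21 for let-7d-5p, −1.38 to −1.13 for let-7f-5p, −1.96 to −1.56 for miR-98-5p and −1.37 to −0.98 for the sum. The number of the 4 called lower ranged from 0 to 2 and that of all miRNAs from 0 to 6 in edgeR (14 to 28 lower at an unadjusted p under 0.05). The difference in share was −2.11 percentage points when miR-9-5p was taken out of the total, and ranged from −1.67 to −0.67 with each library left out. The log2 ratio shifts ranged from 0.36 to 0.73 (let-7a over let-7d), 0.11 to 0.31 (let-7a over let-7f), 0.66 to 0.76 (let-7a over miR-98), −0.58 to −0.091 (let-7d over let-7f), 0.0027 to 0.33 (let-7d over miR-98) and 0.42 to 0.58 (let-7f over miR-98).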
